A study of Mus musculus with 2 samples.

Results

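Polycomb and trithorax genes encode the subunits of protein complexes that keep developmental genes silent or active by modifying histones. The set described here has 35 genes, taken from the non-control spots of 2 arrays by the gene name printed in the scanner files. They are read by 50 probes, against 22755 genes with a RefSeq name on the whole array. Of the 35 genes, 22 have 1 probe, 11 have 2 and 2 have 3, and each probe was printed as a single spot. All 50 probes had the same symbol through their RefSeq accession.

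The samples were EpiSC, epiblast stem cells of the mouse, which are pluripotent and resemble the epiblast after implantation. Clone 2 and clone 1 were each profiled at passage 9 on 1 array. Per the labels, both lines were wildtype, female and of C57BL/6 background, and trypsin was used to harvest them. Each group is therefore a single clone with no replicate, so no test between clones can be made and every difference below compares these 2 arrays only.

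Polycomb repressive complex 2 (PRC2) methylates lysine 27 of histone H3, and Polycomb repressive complex 1 (PRC1) attaches ubiquitin to histone H2A. The COMPASS complexes of the trithorax group methylate lysine 4 of histone H3 and so counter Polycomb at active genes. In pluripotent cells many promoters of developmental regulators carry both marks and stay poised until differentiation.

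Signals are log2 processed intensities from which each array's own 75th percentile was subtracted. That percentile was an intensity of 726 on the array of clone 2, against 819 on the array of clone 1. Detected probes are those that the scanner software marked as well above background. The lowest signal of any detected probe was -4.55 in clone 2 and -4.54 in clone 1. Negative controls had a median of -6.67 in clone 2 and -6.68 in clone 1. Each gene is represented by its brightest probe, and differences are clone 2 minus clone 1. Between repeated spots of 1 probe the median SD was 0.08 in clone 2 and 0.07 in clone 1, which gives an SD of 0.11 for a difference between single spots. For dim probes, below a signal of -2, that SD was 0.17. These values cover the spots and not the culture, the RNA or the labelling. Because probes differ in how well they bind, a signal is compared between the clones and not between genes.

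Nearly the whole set was expressed in both clones. Detection on both arrays was found for 33 of the 35 genes (94.3%), against 61.3% of all genes. The exceptions were Cbx7 and Cbx8, which encode subunits that read methylated lysine 27 within PRC1. The 35 genes were chosen with earlier results of these data known, so the detected share describes the set only. Between the clones, 1 gene of the 33 was at least 1.5-fold higher in clone 2 (Phf1), where 5.76% of all measured genes were. In the other direction 1 of 33 was at least 1.5-fold lower (Pcgf2), where the share over all genes was 3.31%. At 2-fold, 1 was higher in clone 2 (1.52% of all genes) and 0 were lower (1.03% of all genes), or 3.03% in either direction against 2.55% of all genes. The share of members past 1.5-fold in either direction, 6.06%, was not above the 9.07% of all 13924 measured genes. The median difference of the 33 genes was 0.03, beside 0.05 over all genes, with 18 genes on the higher side in clone 2 and 15 on the lower side. The 31 members under 1.5-fold lay between -0.47 and 0.40, and 13 of them differed by no more than the SD between spots (0.106 before rounding). In bulk RNA, fewer cells of a type and less RNA per cell cannot be told apart.

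**Figure D1:**
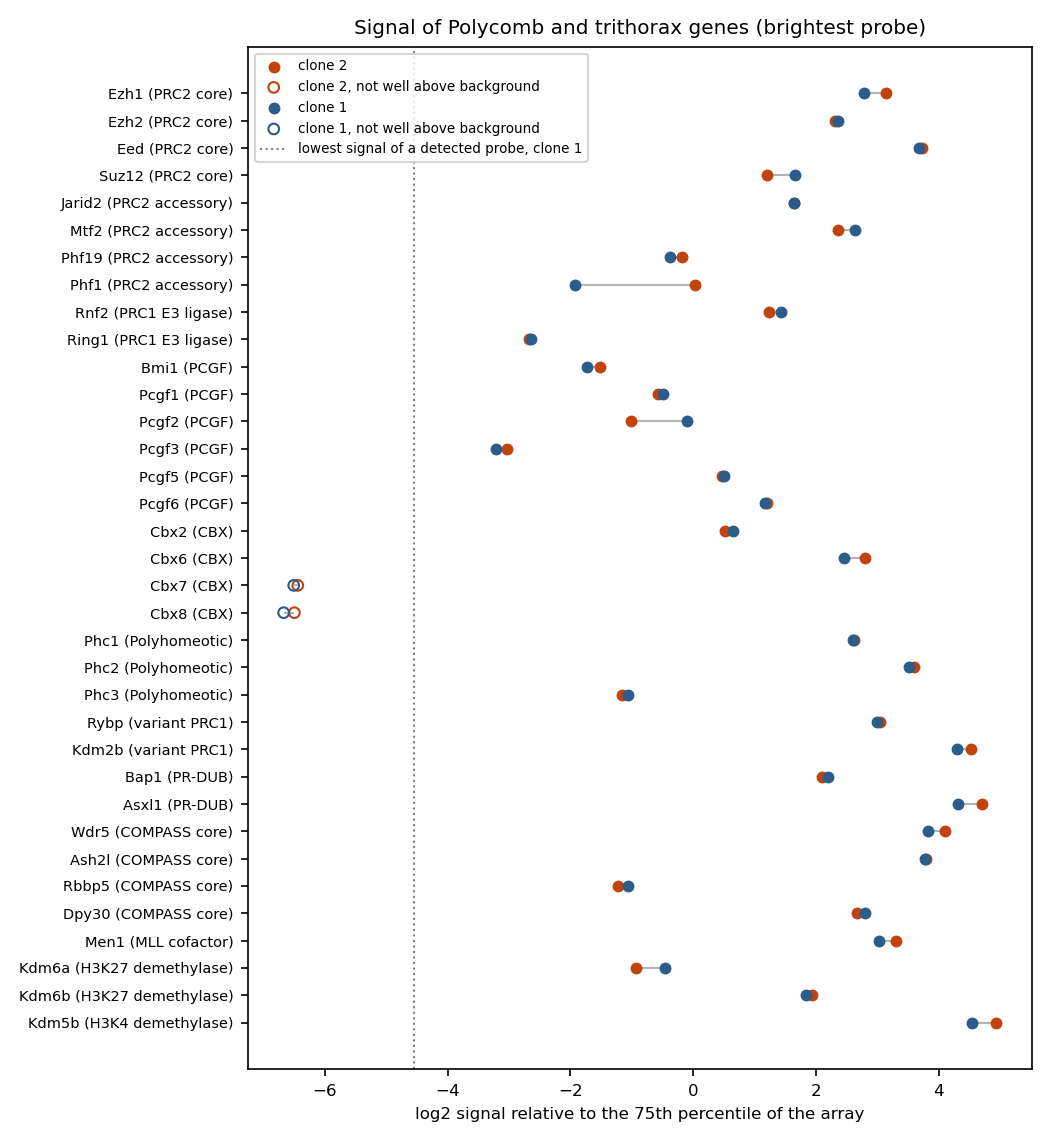
Signal of each of the 35 genes by its brightest probe, as log2 intensity minus the array's 75th percentile (horizontal axis), with the complex of each gene in brackets. Filled points are clone 2 and clone 1, open points are not well above background, and the dotted line is the lowest signal of a detected probe in clone 1 (-4.54, against -4.55 in clone 2). The points of the clones lie close together in all genes but Phf1 and Pcgf2, and Cbx7 and Cbx8 lie below the dotted line.

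The 4 core genes of PRC2 were detected in both clones and none was 1.5-fold apart. Ezh2, the methyltransferase that is the main catalytic subunit in dividing cells, had 2.31 in clone 2 and 2.37 in clone 1 at its probe on chromosome 6 from 47480307 to 47480366 (mm9). Eed, which binds methylated lysine 27 and stimulates the enzyme, had 3.73 in clone 2 and 3.68 in clone 1. Both differences, -0.05 and 0.04, were below the SD between spots. Suz12, the subunit that holds the core together, had 1.20 in clone 2 and 1.66 in clone 1. Its difference of -0.46 (1.38-fold lower in clone 2) exceeded that SD and rests on a single probe, on chromosome 11 from 79847251 to 79847310 in mm9. Of its 6 nearest spots 4 were detected on an array, and 0 of these were 2-fold apart in the same direction. Over all genes of a similar brightness (signals from 0 to 2), the differences had an SD of 0.33 and 6.27% were at least 1.5-fold apart.

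Ezh1, the paralogue of Ezh2 that is typical of resting cells, was read by 3 probes which did not give the same answer. The brightest had 3.15 in clone 2 and 2.78 in clone 1, a difference of 0.36. The others, also detected on both arrays, differed by -0.02 (0.67 in clone 2 and 0.69 in clone 1) and -0.17 (-3.66 in clone 2 and -3.49 in clone 1). The last is a dim probe, and its difference was no larger than the SD for such probes (0.17). All 3 lie on chromosome 11 within Ezh1 (the brightest from 101052430 to 101052489 in mm9), and the mean of the probes was 0.06. No direction can therefore be given for Ezh1.

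Of the accessory subunits of PRC2, which recruit the complex to CpG-rich DNA or tune its activity, Jarid2 had 1.64 in clone 2 and 1.64 in clone 1. Phf19, a Polycomb-like protein that binds methylated lysine 36 of histone H3, had -0.18 in clone 2 and -0.37 in clone 1. Mtf2, the Polycomb-like protein most closely tied to PRC2 in mouse embryonic stem cells, had 2.36 in clone 2 and 2.64 in clone 1 by its brighter probe. That is a difference of -0.28, while its second probe, nearer the 5' end of the transcript (base 2081 against base 3960), was detected in neither clone (-6.64 in clone 2 and -6.51 in clone 1).

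Phf1, the third Polycomb-like protein, differed most among the 33 genes. Its signal was 0.03 in clone 2 and -1.93 in clone 1, a difference of 1.96 (3.89-fold), at the probe on chromosome 17 from 27074715 to 27074774 (mm9). As intensities these were 743 in clone 2 and 216 in clone 1. The second Phf1 probe, from 27073236 to 27073295, did not reach detection on any array, at -6.03 in clone 2 and -5.05 in clone 1. The larger value thus rests on 1 spot per array, and that spot did not stand alone in its difference.

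Among the 6 spots printed nearest to the Phf1 spot, which read other genes, clone 2 was at least 2-fold higher at 5. Their folds ran from 5.34 to 65.0, with intensities of 160 to 587 in clone 2 and 7.97 to 90.0 in clone 1. The probes of 2 of these neighbours, for Csf2 and Zfp169, were printed 10 times on the array, so their copies elsewhere can be compared. At this place Zfp169 had an intensity of 249 in clone 2, while its 9 other spots on the same array lay between 51.6 and 75.6. On the array of clone 1 it had 52.6 at this place, within the 44.7 to 58.8 of its other spots. Csf2 had 462 in clone 2 at this place against a median of 14.7 over its 9 other spots, and 8.01 in clone 1 against a median of 9.39. Os9, the neighbour under 2-fold, had 1979 in clone 2 at this place, above the 1517 to 1676 of its 9 other spots. The software marked the Csf2 and Zfp169 spots as outliers among their copies on the array of clone 2, so they did not enter the gene counts. The Phf1 spot, whose probe was printed once, carried no outlier flag.

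Pcgf2 (Mel18), a RING-finger partner of the PRC1 ligase, showed the same kind of surroundings in the opposite direction. Its signal was -1.01 in clone 2 and -0.09 in clone 1, a difference of -0.91 (1.88-fold lower in clone 2), at the probe on chromosome 11 from 97551160 to 97551219 (mm9). Of the 6 nearest spots, 4 were at least 2-fold lower in clone 2, with intensities of 6.60 to 8.63 in clone 2 and 130 to 678 in clone 1. The remaining neighbours differed by 0.03 and -0.23. Elsewhere on the array, the second Pcgf2 probe had -2.87 in clone 2 and -2.78 in clone 1, a difference of -0.09 that was below the SD between spots. It covers 174 bases of the genome, from 97553207 to 97553380 in mm9, and 0 of the 4 detected among its nearest spots were 2-fold apart in the same direction.

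Clusters of such spots were rare on these arrays. With neighbours counted when detected on at least 1 array and free of outlier flags, 3 or more of the 6 nearest spots were 2-fold apart in the same direction for 77 of 13924 measured genes (0.553%). Both members past 1.5-fold were among them, with 3 such neighbours for Phf1 and 4 for Pcgf2. Of the other 31 members, 26 had 0 and 5 had 1. Over all genes, 3 or more such neighbours were found for 1.37% of those at least 1.5-fold higher in clone 2. For those at least 1.5-fold lower the share was 3.69%. An alternative chosen after the values were seen left out genes whose spot had 3 or more such neighbours. It dropped both members past 1.5-fold, so that 0 of the remaining 31 followed from the choice. Of all 13847 remaining genes, 8.92% were 1.5-fold apart. The remaining genes were not split by signal, with which that share fell over all genes. What produced these clusters was not tested.

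**Figure D2:**
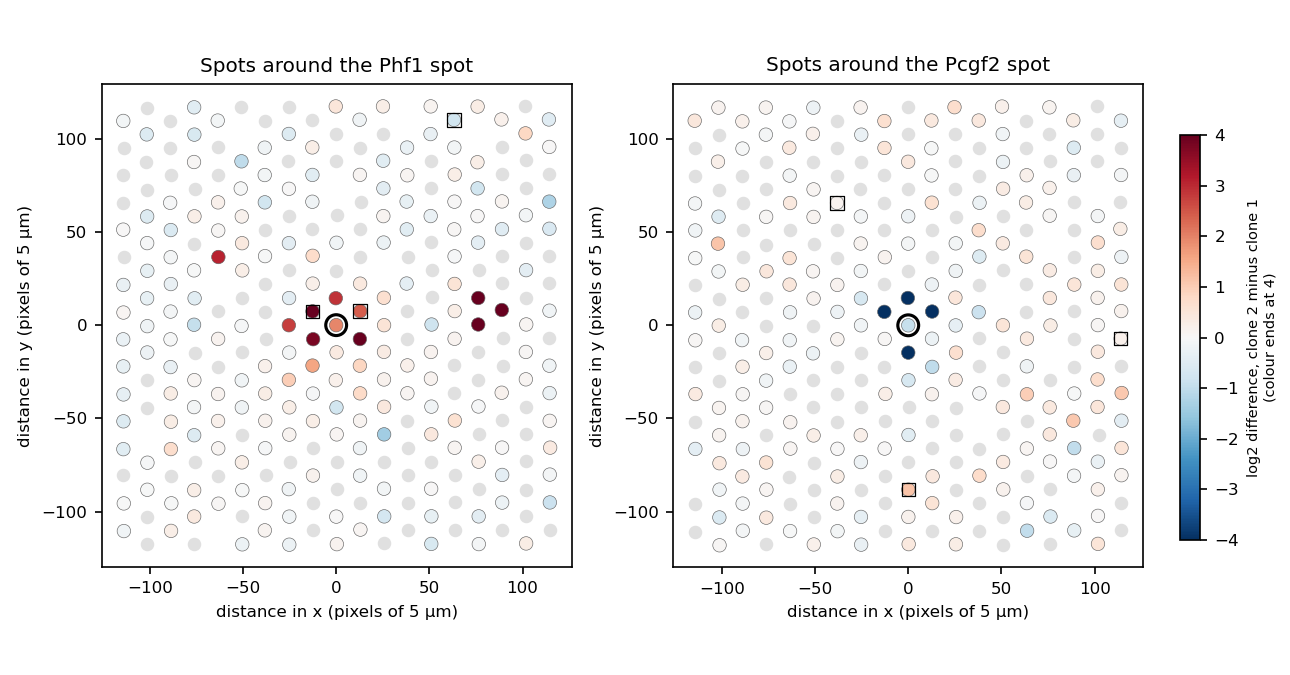
Spots within 120 pixels of the spots of Phf1 and Pcgf2 (black circles at the centre), placed by their distance in x and y, with 5 µm per pixel. Colour is the log2 difference, clone 2 minus clone 1, grey spots were detected on neither array and squares carry an outlier flag. The Phf1 spot lies among 5 nearest spots with clone 2 at least 2-fold above clone 1, and the Pcgf2 spot lies beside 4 that were at least 2-fold lower in clone 2.

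Within PRC1 the ligase subunits were detected in both clones with small differences. Rnf2 (Ring1B), the main enzyme that ubiquitinates histone H2A in mouse embryonic stem cells, had 1.23 in clone 2 and 1.44 in clone 1, a difference of -0.21. Its paralogue Ring1 had -2.68 in clone 2 and -2.65 in clone 1, a difference of -0.03 that was below the SD between spots.

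The PCGF proteins pair with the ligase and define the kinds of PRC1, and all 6 were detected in both clones. Bmi1 (Pcgf4), which with Pcgf2 forms the canonical complexes, had -1.52 in clone 2 and -1.73 in clone 1. Its second probe was detected in clone 2 only, at -3.60 against -5.11 in clone 1. The clone 2 signal was 1.92-fold above the lowest detected signal of clone 1 (-4.54). From 1 dim spot per array, this sets no firm lower limit to the fold. The brighter Bmi1 probe, 0.21 higher in clone 2, did not show a difference of that size. Of the partners in variant complexes, Pcgf1 had -0.57 in clone 2 and -0.50 in clone 1, and Pcgf3 had -3.04 in clone 2 and -3.22 in clone 1. Pcgf6, which joins a complex with Mga and E2f6 that silences germ cell genes, had 1.20 in clone 2 and 1.17 in clone 1. None of these 3 differences was above 0.18.

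Pcgf5 gave a direct view of how far nearly identical probes can differ. Its 2 probes of 60 bases are offset by 6 bases on chromosome 19 (from 36530623 and from 36530629 in mm9) and share 54. The brighter had 0.47 in clone 2 and 0.51 in clone 1, a difference of -0.03. The other had 0.15 in clone 2 and -0.39 in clone 1, a difference of 0.54. Across the 9 members with more than 1 probe measured on both arrays, the median spread of the differences within a gene was 0.32, and it was above 0.5 in 3 (Ezh1, Pcgf2 and Pcgf5). Over all 3501 such genes the median spread was 0.23, and 17.0% were above 0.5.

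**Figure D3:**
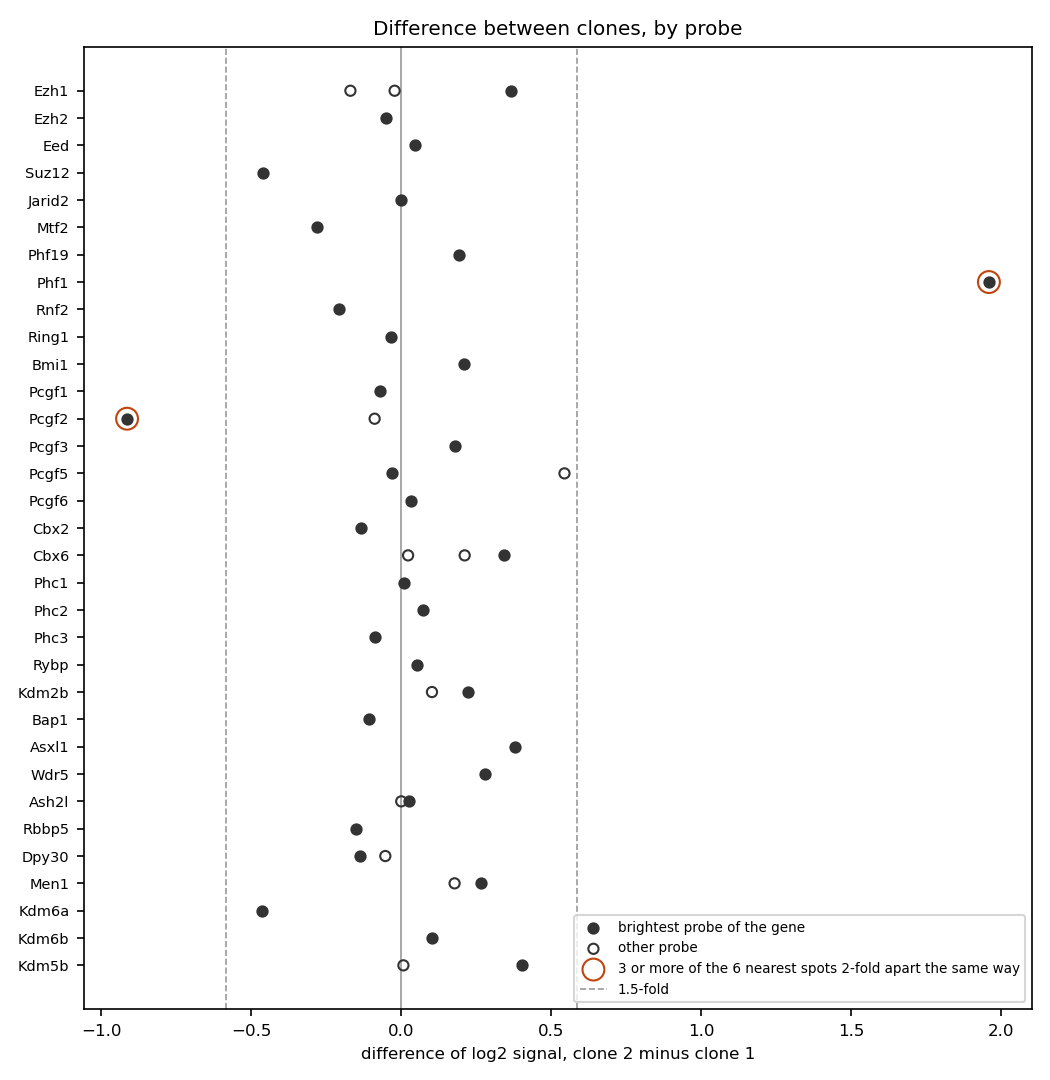
Difference of log2 signal, clone 2 minus clone 1 (horizontal axis), for each probe of the 33 genes measured on both arrays. Filled points are the brightest probe of a gene, open points its other probes, dashed lines mark 1.5-fold, and large circles mark spots with 3 or more of the 6 nearest spots 2-fold apart in the same direction. The points outside the dashed lines, Phf1 (1.96) and Pcgf2 (-0.91), are the ones with large circles.

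The CBX proteins carry the chromodomain by which canonical PRC1 binds methylated lysine 27, and this was the family with undetected members. Cbx6 was detected by all 3 of its probes, and the brightest had 2.80 in clone 2 and 2.45 in clone 1. Cbx2 had 0.52 in clone 2 and 0.65 in clone 1. Their differences were 0.34 and -0.13, and the other Cbx6 probes differed by 0.02 and 0.21.

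Cbx7, the CBX protein that is usual in naive mouse embryonic stem cells, had -6.44 in clone 2 and -6.51 in clone 1. Cbx8 had -6.50 in clone 2 and -6.67 in clone 1. These signals lay near the medians of the negative controls, and the software's less strict flag (positive and significant) was not met on either array. Each of these genes has only 1 probe, on chromosome 15 from 79746240 to 79746299 for Cbx7 and on chromosome 11 from 118899777 to 118899836 for Cbx8 (mm9). Whether those probes can detect their transcripts was not tested here. In Phc3 and Mtf2, for example, 1 probe was not well above background while the other was.

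On the chromosome these genes are neighbours. Cbx2 and Cbx8 lie side by side on chromosome 11 with no other protein-coding gene between them in the RefSeq table, and Cbx6 and Cbx7 lie on chromosome 15 with 1 protein-coding gene between them. In each pair a gene that was not well above background thus lies near a detected one.

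The promoters of Cbx6, Cbx7 and Cbx8 are shown to set the undetected genes beside their detected relative. Each is the RefSeq stretch from 250 bases before to 50 bases after the start (GRCm38.p6), 5′ to 3′, with every CG dinucleotide in capitals.
Cbx6, chr15:79834284-79834583, minus strand: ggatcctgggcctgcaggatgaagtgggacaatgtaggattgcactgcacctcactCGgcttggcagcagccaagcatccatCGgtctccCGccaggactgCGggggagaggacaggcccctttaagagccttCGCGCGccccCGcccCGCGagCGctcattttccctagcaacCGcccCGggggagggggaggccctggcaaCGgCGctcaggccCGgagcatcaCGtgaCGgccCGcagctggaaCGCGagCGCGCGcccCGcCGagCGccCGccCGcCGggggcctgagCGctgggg
Cbx7, chr15:79932597-79932896, minus strand: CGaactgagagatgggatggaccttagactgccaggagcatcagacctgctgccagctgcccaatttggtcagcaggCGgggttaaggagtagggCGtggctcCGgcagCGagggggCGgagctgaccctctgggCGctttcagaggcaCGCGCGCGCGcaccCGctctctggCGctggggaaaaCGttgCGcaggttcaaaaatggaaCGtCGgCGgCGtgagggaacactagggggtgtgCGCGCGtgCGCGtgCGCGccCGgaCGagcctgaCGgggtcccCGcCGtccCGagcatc
Cbx8, chr11:119040864-119041163, minus strand: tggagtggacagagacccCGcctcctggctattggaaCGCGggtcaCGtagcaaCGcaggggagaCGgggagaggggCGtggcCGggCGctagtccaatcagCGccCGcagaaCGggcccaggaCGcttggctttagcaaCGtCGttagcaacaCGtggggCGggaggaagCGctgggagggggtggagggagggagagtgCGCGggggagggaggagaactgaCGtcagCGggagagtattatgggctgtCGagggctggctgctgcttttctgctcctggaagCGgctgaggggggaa

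CG-rich promoters are those to which Kdm2b and the trithorax protein Cxxc1 bind through their CXXC domains when the DNA is unmethylated. Cbx7 has 33 CG in its 300 bases and Cbx8 has 24, while Cbx6 has 31. The median was 4 CG over 5832 genes detected on neither array and 20 over 10721 genes detected on both. A count of 15 or more was found in 17.5% of the first group and 67.5% of the second. Promoters were listed for 30 of the 35 members, and 25 of these (83.3%) had 15 or more CG by the first listed start of each gene. Of the 29 listed promoters of the other Polycomb and trithorax genes described below, 24 (82.8%) had as many. Of 18 listed promoters of the developmental genes described below, which were mostly not detected, 12 (66.7%) had as many, with a median of 17.5. High counts in undetected genes are thus not particular to Cbx7 and Cbx8, though these 18 were not split by detection. Members without a listed promoter were Pcgf1, Cbx2, Rybp, Ash2l and Kdm6b. The median over the 30 was 23 CG. The range ran from 1 in Dpy30, which has 4 listed starts, to 50 in Bap1. The promoter of Pcgf2 has 10 and that of Phf1 24.

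**Figure D4:**
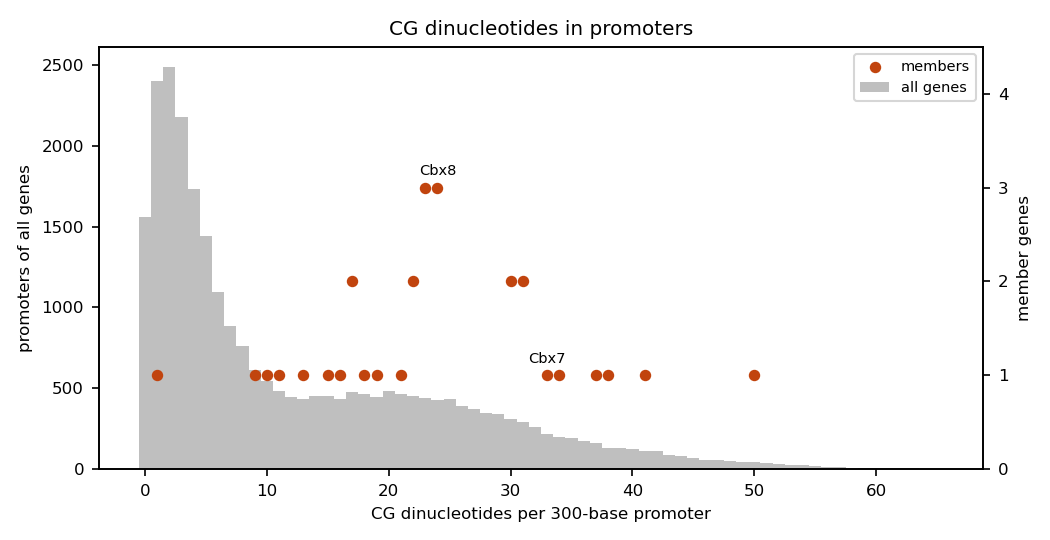
Number of CG dinucleotides in the 300-base promoter (horizontal axis) of all genes (grey bars, left axis, number of promoters) and of the 30 members with a listed promoter (points, right axis, number of genes). Most promoters of all genes hold few CG (median 7), most members hold 15 or more, and the points that hold Cbx7 (33) and Cbx8 (24) lie among the other members.

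The promoters were also searched for the letters of known motifs. The sites of E2F factors, which drive genes needed for cell division, were searched on both strands as TTTGGCGC, TTTCGCGC, TTTCCCGC and TTTGCCGC. They were found in 3 of the 30 promoters (10%), those of Ezh2, Suz12 and Phf19. They were found in 0 of the 29 listed promoters of the other Polycomb and trithorax genes described below, which include further PRC2 subunits. The share was 2.32% over all promoters and 4.0% over genes detected on both arrays. The 3 promoters with a match are shown, with the match in capitals.
Ezh2, chr6:47594981-47595280, minus strand: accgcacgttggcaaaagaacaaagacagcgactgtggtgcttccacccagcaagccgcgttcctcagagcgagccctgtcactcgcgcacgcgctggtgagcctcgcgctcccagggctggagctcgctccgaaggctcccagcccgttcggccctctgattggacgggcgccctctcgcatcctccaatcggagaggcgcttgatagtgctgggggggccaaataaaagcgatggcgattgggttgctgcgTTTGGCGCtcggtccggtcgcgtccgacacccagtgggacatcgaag
Suz12, chr11:79992856-79993155, plus strand: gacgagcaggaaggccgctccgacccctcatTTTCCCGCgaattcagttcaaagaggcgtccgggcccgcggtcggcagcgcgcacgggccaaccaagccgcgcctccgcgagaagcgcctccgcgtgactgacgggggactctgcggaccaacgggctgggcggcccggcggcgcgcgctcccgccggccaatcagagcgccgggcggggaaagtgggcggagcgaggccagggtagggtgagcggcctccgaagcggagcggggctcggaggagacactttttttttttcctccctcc
Phf19, chr2:34913927-34914226, minus strand: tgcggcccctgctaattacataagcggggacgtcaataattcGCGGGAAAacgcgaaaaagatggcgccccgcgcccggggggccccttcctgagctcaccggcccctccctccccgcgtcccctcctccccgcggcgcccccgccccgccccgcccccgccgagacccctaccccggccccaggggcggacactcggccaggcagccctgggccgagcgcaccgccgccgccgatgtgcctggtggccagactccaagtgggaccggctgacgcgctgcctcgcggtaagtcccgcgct

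In Suz12 the match begins 219 bases before the start, in Phf19 the match on the other strand begins 208 bases before it, and in Ezh2 it lies just after the start. For YY1, the mammalian relative of the fly Polycomb recruiter Pleiohomeotic, the letters AANATGGC on either strand were found in 6 of 30 promoters (20%). The members with a match were Jarid2, Phf19, Bmi1, Pcgf2, Phc3 and Asxl1. The share was 6.23% over all promoters and 8.50% over those of genes detected on both arrays. It was 20.7% (6 of 29) over the other Polycomb and trithorax genes, so the YY1 share was not particular to the members. A motif of NRF1, also searched, was found in 1 of 30 member promoters (3.33%) and 2 of those 29 (6.90%). Its share was 0.977% over all promoters and 1.89% over those of genes detected on both arrays. Such matches describe the letters only.

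The Polyhomeotic proteins, which let PRC1 form larger assemblies through their SAM domains, differed little. Phc1 had 2.61 in clone 2 and 2.60 in clone 1, and Phc2 had 3.59 in clone 2 and 3.52 in clone 1. Phc3 had -1.16 in clone 2 and -1.07 in clone 1 by its detected probe, and its other probe was detected in neither clone. All 3 differences were below the SD between spots.

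Of the subunits of variant PRC1, Kdm2b brings the complex to unmethylated CG-rich DNA and Rybp takes the place of a CBX protein. Kdm2b had 4.52 in clone 2 and 4.30 in clone 1, a difference of 0.22, and the other Kdm2b probe gave 0.10. Rybp had 3.05 in clone 2 and 2.99 in clone 1.

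Bap1 and Asxl1 form the enzyme that removes ubiquitin from histone H2A and so opposes PRC1. Bap1, its catalytic subunit, had 2.09 in clone 2 and 2.20 in clone 1. Asxl1, its activating partner, had 4.70 in clone 2 and 4.32 in clone 1, a difference of 0.38 (1.30-fold) by its only probe, on chromosome 2 from 153229684 to 153229743 in mm9. The difference of Bap1, -0.11, was just above the SD between spots, and that of Asxl1 was larger.

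The shared core of the COMPASS complexes, in which 4 subunits activate each lysine 4 methyltransferase, was present in both clones. Wdr5, the scaffold that holds the enzyme, had 4.10 in clone 2 and 3.82 in clone 1, a difference of 0.28. Ash2l had 3.79 in clone 2 and 3.77 in clone 1, and both of its probes differed by less than the SD between spots. Rbbp5, which contacts the enzyme together with Ash2l, had -1.22 in clone 2 and -1.07 in clone 1. Dpy30, the small subunit bound to Ash2l, had 2.66 in clone 2 and 2.80 in clone 1, with probes that differed by -0.14 and -0.05. Men1 (menin), which tethers the Kmt2a and Kmt2b enzymes to their targets, had 3.30 in clone 2 and 3.03 in clone 1. Its probes differed by 0.27 and 0.18, the same direction and a similar size.

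The demethylases of the set act on either mark. Kdm6a (Utx), an X-linked enzyme that removes methyl groups from lysine 27, had -0.93 in clone 2 and -0.46 in clone 1 at its probe on chromosome X from 17852163 to 17852222 (mm9). The difference of -0.47 (1.38-fold lower in clone 2) was the lowest among the members under 1.5-fold, and of the 2 detected among its nearest spots 1 was at least 2-fold lower in clone 2. Kdm6b (Jmjd3), an inducible enzyme with the same activity, had 1.94 in clone 2 and 1.84 in clone 1. Kdm5b, which removes methyl groups from lysine 4 and is abundant in mouse embryonic stem cells, had 4.94 in clone 2 and 4.54 in clone 1. That was a difference of 0.40 (1.32-fold), but the second Kdm5b probe had 0.21 in clone 2 and 0.20 in clone 1. The brighter probe lies on chromosome 1 from 136528046 to 136528105 and the other from 136528957 to 136529016 (mm9).

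Of 39 other Polycomb and trithorax genes on the array, 37 were detected in both clones (94.9%), and L3mbtl1 in neither. Asxl3 was detected in clone 1 only, close to the lowest detected signal (-5.36 in clone 2 and -4.36 in clone 1). At least 1.5-fold higher in clone 2 were 2 of the 37 (5.76% of all genes) and at least 1.5-fold lower 0 (3.31% of all genes). These were Kdm5a, another lysine 4 demethylase (0.79 in clone 2 and 0.12 in clone 1), and Kmt2d, a lysine 4 methyltransferase of enhancers (-1.67 in clone 2 and -2.30 in clone 1). The second measured Kmt2d probe differed by 0.27, where the brightest differed by 0.62. The median of the 37 was 0.06, beside 0.05 over all genes.

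Developmental regulators that Polycomb complexes hold silent in mouse embryonic stem cells were mostly not detected. The 29 such genes listed were chosen from general knowledge, but with earlier results of these data known, so their share describes the list only. Of them, 10 were detected on both arrays (34.5%, against 61.3% of all genes) and 17 on neither. Those on neither included Pax6, Pax7, Foxa2, Cdx2, Hand1, T, Gata4, Hoxb1 and Hoxd13. Gata6 was detected in clone 2 only and Tbx5 in clone 1 only, each near the lowest detected signal. Cdkn2a, the tumour suppressor gene that Bmi1 represses in mouse fibroblasts, had 2.07 in clone 2 and 1.99 in clone 1. Olig2, a neural factor, was the only measured one at least 1.5-fold apart, with -1.94 in clone 2 and -1.34 in clone 1. That is 1 of 10 (10%), near the 9.07% of all measured genes in either direction (3.31% lower in clone 2). The median over the 10 measured genes was -0.01. No histone mark was measured in these samples.

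Markers of the labelled cell type were present. All 8 epiblast stem cell markers, Pou5f1, Sox2, Nanog, Fgf5, Otx2, Pou3f1, Dnmt3b and Nodal, were detected on both arrays. Of 7 naive markers, Zfp42, Dppa3, Nr0b1, Tcl1 and Prdm14 were detected on neither, while Klf4 and Esrrb were detected on both. Klf4 had -0.02 in clone 2 and -0.22 in clone 1, and Esrrb had -0.52 in clone 2 and -0.40 in clone 1. All 10 fibroblast markers were detected as well, with a summed linear signal of 91.1 in clone 2 and 83.0 in clone 1 in units of the 75th percentile. Of the 5 macrophage and blood markers 3 were detected on both arrays, with sums of 3.78 in clone 2 and 2.37 in clone 1. Among them Cd3e had 0.31 in clone 2 and -2.14 in clone 1, and Csf1r had 0.48 in clone 2 and -0.35 in clone 1, although its second measured probe differed by only 0.09. Lyz2 lay the other way, with 0.20 in clone 2 and 0.44 in clone 1. Cd68 was detected in clone 2 only and Ptprc in clone 1 only. Of 3 trophoblast markers only Gcm1 was detected on both arrays, and Cdx2 and Elf5 were detected on neither. The brightest of 3 Gcm1 probes, placed on chromosome 7, had 2.58 in clone 2 and 3.04 in clone 1. Another missed detection on at least 1 array, and whether these probes read Gcm1 was not tested. Endoderm markers had 0 of 3 on both arrays. Polycomb and trithorax genes are active in most cell types, and the part of such cells in the signals above was not tested.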

How the data were processed

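Both samples were measured on a 1-colour Agilent array (design 026655) and read by the scanner software Feature Extraction 11.0.1.1 (protocol GE1_1100_Jul11), per the file headers, with probe positions on mm9 (NCBI37). The deposited scanner files hold a processed signal intensity per spot, corrected for background and spatial trend within the array, per the file headers. The scanner software's flags for detection and outliers were used as deposited. The authors' deposited table of normalized intensity was used only as an alternative. Its normalization method was not given in the sources used here. Its log2 columns correlated at 1.00 and 0.999 across probes with the scanner signals of clone 2 and clone 1, and its medians were 65.8 and 65.8.

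Of 43020 non-control spots per array, 246 (clone 2) and 277 (clone 1) carried an outlier flag and were left out. Log2 intensities of repeated spots were averaged and set relative to the 75th percentile over 39272 probes. Detection required the well-above-background flag in 50% or more of the spots of a probe. Genes for the background counts were named through RefSeq accessions or symbols (GRCm38.p6), which left 9232 of 39429 probes unnamed. The nearest spots were the 6 closest by scanned position.

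The difference between clones has no replicate, so folds of 1.5 and 2 stand in place of a test. The functions were tested on simulated data with known changes. Alternatives used quantile normalization or normexp correction (limma 3.58.1, offset 50), the authors' values, other probe rules and other flags. The members and lists were chosen with earlier results of these data known. All members are accounted for, with full values for those at least 1.5-fold apart, with an undetected or discordant probe, or with a catalytic or scaffold role. Of other lists, genes are named when 1.5-fold apart, not detected or defining. Whether a probe lies in a coding or untranslated part is not given in the files.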

Additional observations from a re-analysis of the deposited data

How the results depend on the processing

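Of the 4 alternatives run for detection, only the less strict flag (positive and significant) could change the count of members, and only upward. Detection on both arrays was found for 33 members under all 4. Their median signal moved to 1.67 in clone 2 and 1.71 in clone 1 with normexp correction and to 1.20 in clone 2 and 1.44 in clone 1 with probes averaged within a gene (the mean of all probes), from main values of 1.94 in clone 2 and 1.84 in clone 1. The median difference of 0.03 was -0.05 with quantile normalization and with the authors' deposited values (medians over all genes of 0.01). Genes were also left out by the spots around them, in 3 ways. The first dropped genes with a 2-fold neighbour detected on both arrays (29 members stayed), and the others, chosen after seeing the data, counted neighbours detected on at least 1 array and dropped genes with 1 or more (26 stayed) or 3 or more (31 stayed). The count of 1 member 2-fold higher in clone 2 was 0 under each of the 3 and with the mean of all probes. The count of 1 member 1.5-fold higher in clone 2 was 0 under each of the 3, since each dropped Phf1 itself. The count of 1 lower in clone 2 at 1.5-fold was 2 with normexp correction (Suz12 at -0.59 beside Pcgf2 at -0.64), 0 with the mean of all probes (Pcgf2 at -0.50), 0 without genes having 1 or more such neighbours and 0 without those having 3 or more. It stayed at 1 under the first way, since the 4 neighbours of Pcgf2 were detected in clone 1 only. The other ways dropped Pcgf2 itself. Over all genes, 10.5% were at least 1.5-fold apart in either direction with normexp correction and 8.84% with the mean of all probes. Under the 3 ways in turn, the shares over all genes were 8.76%, 8.28% and 8.92% at 1.5-fold, and 2.28%, 1.99% and 2.44% at 2-fold. At 2-fold the share was 2.41% with the mean of all probes. With the mean of all probes Phf1 differed by 0.49, a mean that includes a probe detected in neither clone, and Bmi1 by 0.86, a mean that includes a probe detected in clone 2 only. Of the 33 single differences, 20 kept their sign under all 6 alternatives run for them and 13 did not, the largest of these being 0.15 in size. Not all 6 could change a sign freely. Matching probes through RefSeq left every member difference unchanged, and keeping flagged spots shifted all by the same small amount. Averaging probes could change only genes with more than 1 probe. Quantile normalization and the authors' values gave similar differences. No paired analysis was possible because each clone has 1 array, which leaves no pairs to compare. With 1 spot per probe and 1 array per clone, differences near the SD between spots cannot be read.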
